A study of Mus musculus with 5 samples.

Results

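The 77 nuclear genes of the mitochondrial ribosome examined here are the autosomal protein-coding genes in mm9 whose symbols begin with Mrpl (large subunit, 47 genes) or Mrps (small subunit, 30 genes) followed by a digit. Membership and subunit are assigned by symbol alone, although the Mrps18a and Mrps30 proteins are known to reside in the large subunit. Whether every protein so named, such as Mrps36, is part of the ribosome was not checked. They are 77 of 21410 autosomal protein-coding genes, and the remaining 21333 genes are called other genes below. The mitochondrial ribosome translates the few messages that the mitochondrial genome encodes, all for subunits of the respiratory chain and ATP synthase. Its RNAs come from the mitochondrial genome, whereas every protein of both subunits is encoded in the nucleus, made in the cytosol and imported. The promoters of these genes are often rich in CpG, and Cxxc1 (CFP1) has a CXXC zinc finger that binds unmethylated CpG and belongs to the Setd1 complexes that trimethylate histone H3 at lysine 4 (H3K4me3), a mark of active promoters.

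Chromatin immunoprecipitation and sequencing (ChIP-seq) was performed on CD4+CD8+ double positive (DP) thymocytes of WT mice, which are Cxxc1 fl/fl without Cre per the study's methods, and of Cxxc1-deficient mice, which are Cxxc1 fl/fl hCD2 Cre. hCD2 Cre deletes in early thymocytes and in other immune cells as well, so the deletion is not limited to the DP stage. The sample titles call the second genotype KO, whereas its genotype label reads Cxxc1+/-, and groups here follow the titles. Mice were 3 to 4 weeks old by the general statement of the methods, which is not made for each library. One deposited list each was analysed for H3K4me3 in WT, H3K4me3 without Cxxc1, and Cxxc1 itself, whose list carries no genotype and is taken as WT from the methods. Each group had 1 library, so the differences below have no replicate check and no test was made. Libraries held between 9.09 and 9.47 × 1000000 mapped tags as inferred from the deposited decimals, and the 2 H3K4me3 libraries had the same inferred depth (9.41 to 9.47 × 1000000). The WT H3K4me3 list held 14237 peaks, the Cxxc1-deficient list 2979 and the Cxxc1 list 4352. Of 6 DP thymocyte markers, Cd8a (2.7 RPM in WT, 1.5 without Cxxc1), Cd8b1 (3.0 RPM in WT, not listed without Cxxc1) and Cd3e (1.8 and 1.9 RPM) had H3K4me3 windows within 1 kb of a start site in WT, Rag1 had one without Cxxc1 only (0.7 RPM), and Rag2 and Cd4, a defining gene of these cells, had none in either list. Ptcra, a further planned DP marker, was not among the 6 genes read. None of the 9 markers of B cells, myeloid cells and thymic epithelium was listed in any library.

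The files list 200-bp windows of called regions and give each an RPM value, which is its tag number scaled to 1000000 mapped tags. A promoter is called marked where at least 1 listed window lay at most 1 kb from an annotated start site (TSS), and its level is the sum of RPM over those windows. A promoter that is not listed was below the threshold of the peak caller, and its level is unknown and not 0. Intervals are 95% intervals and cover counting error only.

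The promoters of 6 members are shown first, because they belong to 5 of the 6 members that had H3K4me3 without Cxxc1 and to one of the strongest that did not. The sixth, Mrpl47, is left out because an annotated exon adjoins its TSS on the upstream side. Mrpl34 (chr8:73988575-73988824, plus strand) and Mrpl49 (chr19:6057759-6057892, minus strand) were marked in both genotypes. Mrpl2 (chr17:46782928-46783177, plus strand), Mrpl36 (chr13:73468207-73468456, plus strand) and Mrpl38 (chr11:116000183-116000432, minus strand) were listed without Cxxc1 only, and Mrpl28 (chr17:26260215-26260464, plus strand) in WT only. Each sequence is the gene's own strand of mm9, 5′ to 3′, and ends at the base before the 5′-most TSS. It runs over 250 bases, except that Mrpl49 is cut at 134 bases, where the first exon of the divergent gene Fau begins. Capitals mark CpG dinucleotides.
Mrpl34: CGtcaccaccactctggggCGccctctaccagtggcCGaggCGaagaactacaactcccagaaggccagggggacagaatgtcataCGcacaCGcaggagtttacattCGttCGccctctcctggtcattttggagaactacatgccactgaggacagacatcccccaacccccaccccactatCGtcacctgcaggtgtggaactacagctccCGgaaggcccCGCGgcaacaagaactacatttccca
Mrpl49: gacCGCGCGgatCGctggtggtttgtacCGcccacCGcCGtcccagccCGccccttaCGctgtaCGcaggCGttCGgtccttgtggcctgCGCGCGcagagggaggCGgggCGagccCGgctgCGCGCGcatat
Mrpl2: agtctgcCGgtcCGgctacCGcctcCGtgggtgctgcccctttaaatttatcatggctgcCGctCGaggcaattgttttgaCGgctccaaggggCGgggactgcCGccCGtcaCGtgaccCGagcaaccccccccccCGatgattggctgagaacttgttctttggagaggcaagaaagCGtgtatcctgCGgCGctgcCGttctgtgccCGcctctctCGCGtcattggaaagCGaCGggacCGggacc
Mrpl36: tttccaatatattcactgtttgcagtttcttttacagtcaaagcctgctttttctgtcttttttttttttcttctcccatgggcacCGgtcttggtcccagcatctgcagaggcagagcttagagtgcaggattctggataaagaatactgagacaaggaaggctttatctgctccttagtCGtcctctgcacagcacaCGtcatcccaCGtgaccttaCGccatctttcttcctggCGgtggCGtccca
Mrpl38: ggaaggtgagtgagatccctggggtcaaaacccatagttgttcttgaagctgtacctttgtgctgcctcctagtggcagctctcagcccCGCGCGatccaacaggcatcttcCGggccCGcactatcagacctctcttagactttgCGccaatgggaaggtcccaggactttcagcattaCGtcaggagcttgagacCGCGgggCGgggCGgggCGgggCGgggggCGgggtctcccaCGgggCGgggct
Mrpl28: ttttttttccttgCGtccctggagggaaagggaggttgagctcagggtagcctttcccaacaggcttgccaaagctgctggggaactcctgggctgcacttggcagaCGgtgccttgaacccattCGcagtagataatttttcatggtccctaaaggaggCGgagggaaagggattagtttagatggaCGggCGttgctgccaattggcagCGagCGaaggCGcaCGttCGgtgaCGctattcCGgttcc
These stretches held 12 CpG in Mrpl34, 21 in the shorter Mrpl49, 23 in Mrpl2, 7 in Mrpl36, 16 in Mrpl38 and 13 in Mrpl28. In these stretches the kept Mrpl34 had fewer CpG than Mrpl28, which was not listed without Cxxc1. Within 500 bp either side of the TSS the order turned, with 56 CpG in Mrpl34 and 48 in Mrpl28. Among the promoters listed only without Cxxc1 the count in the stretches ranged from 7 to 23.

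In WT DP thymocytes, 36 of the 77 mitochondrial ribosomal protein genes were marked by H3K4me3 (46.8%, 36 to 57.8), where 32.5% of all autosomal genes were. Among the other genes the share was 32.4% (31.8 to 33.0). The small subunit had 17 of 30 promoters marked (56.7%, 39.2 to 72.6) and the large subunit 19 of 47 (40.4%, 27.6 to 54.7), with intervals that overlap. Members with a bacterial counterpart, the ancestral core of the particle, had 23 of 48 promoters marked (47.9%), and members particular to mitochondria 13 of 29 (44.8%), so both classes had about the same share. Where only the stronger 50% of WT peaks was kept, 22.1% of the members and 21% of the other genes were marked, so the higher share of the members was not seen among strong peaks.

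**Figure D1:**
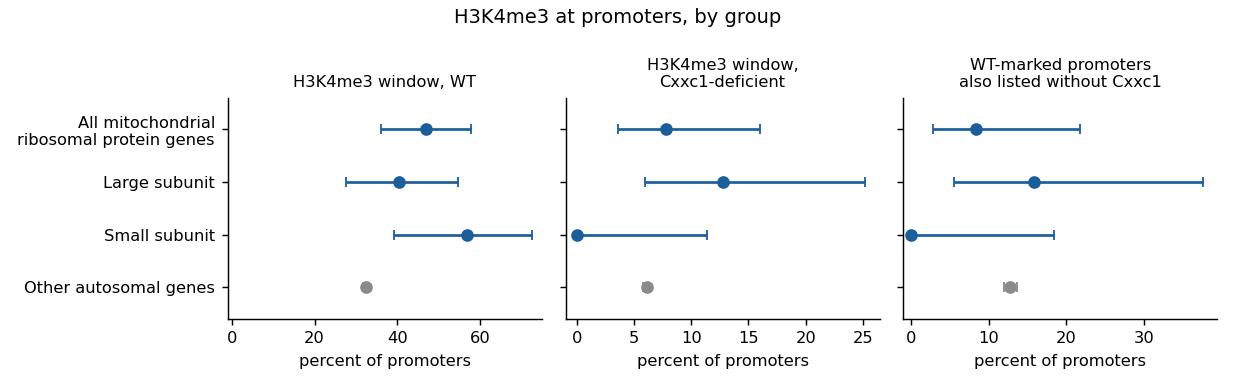
Percent of promoters (x axis) with an H3K4me3 window in WT, with one in Cxxc1-deficient cells, and percent of WT-marked promoters also listed without Cxxc1, for all 77 genes, the 47 large and 30 small subunit genes and the 21333 other genes (y axis). Points are shares and bars 95% Wilson intervals; in WT the 3 sets of mitochondrial ribosomal protein genes sit above the other genes (32.4%), and no small subunit promoter was listed without Cxxc1.

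The marked members were of middling strength. Their summed WT level ran from 1.2 to 3.4 RPM with a median of 2.15 RPM (2.0 to 2.5), which corresponds to 21.5 tags in 5.5 windows. The other marked genes had a median of 2.4 RPM (2.3 to 2.4) over a range of 0.3 to 13.7 RPM, and 1059 of them (15.3%) lay above the strongest member. No mitochondrial ribosomal protein gene was thus among the most strongly marked promoters. A range widens with the number of genes, and the quartiles were more alike, 1.9 and 2.73 RPM in the members and 1.9 and 3 RPM in the other genes. Levels were summed over all TSS of a gene. With only the 5′-most TSS the medians were 2.15 RPM in the members and 2.3 RPM in the other genes.

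In the large subunit, Mrpl51 had the highest level at 3.4 RPM (34 tags, 23.5 to 47.5), and it faces Ncapd2, a condensin subunit gene, across 570 bp. Mrpl28 followed with 3.3 RPM and no other coding gene's TSS within 1 kb. Mrpl47, the counterpart of bacterial L29 at the exit of the peptide tunnel, had 3.3 RPM, and Mrpl18 had 3.2 RPM. These 4 levels were within the counting error of each other. Mrpl34 had 2.8 RPM, Mrpl43 2.7 RPM and Mrpl12, the stalk protein that recruits translation factors, 2.5 RPM. Mrpl53 had 2.4 RPM, Mrpl49 2.3 RPM and Mrpl39 2.2 RPM. The next members formed a shelf close to the median, with Mrpl23 and Mrpl46 at 2.1 RPM, Mrpl1 and Mrpl50 at 2.0 RPM, Mrpl15 at 1.9 RPM, and Mrpl54 and Mrpl55 at 1.8 RPM. The lowest were Mrpl37 at 1.3 RPM (13 tags) and Mrpl3, a protein near the peptidyl transferase centre, at 1.2 RPM (12 tags, 6.2 to 21). Neighbours in this order lay within the counting error of each other, and the order of single genes should be read with that error in mind.

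In the small subunit, Mrps18b and Mrps5 had the highest level, 3.1 RPM each (31 tags, 21.1 to 44.0). Mrps34 had 2.9 RPM, Mrps6 2.8 RPM, Mrps23 2.7 RPM and Mrps28 2.5 RPM. Mrps12, which forms part of the decoding centre, had 2.3 RPM and Mrps14 2.2 RPM. Mrps11, Mrps15 and Mrps18a had 2.1 RPM, Mrps9 2.0 RPM, and Mrps18c and Mrps25 1.9 RPM. Mrps27, a member with pentatricopeptide repeats, had 1.6 RPM, Mrps10 1.5 RPM and Mrps16 1.3 RPM. The 3 genes Mrps18a, Mrps18b and Mrps18c, whose proteins are all related to one bacterial protein, were all marked, at 2.1, 3.1 and 1.9 RPM. The small subunit thus covered nearly the same range as the large one, 1.3 to 3.1 RPM against 1.2 to 3.4 RPM.

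**Figure D2:**
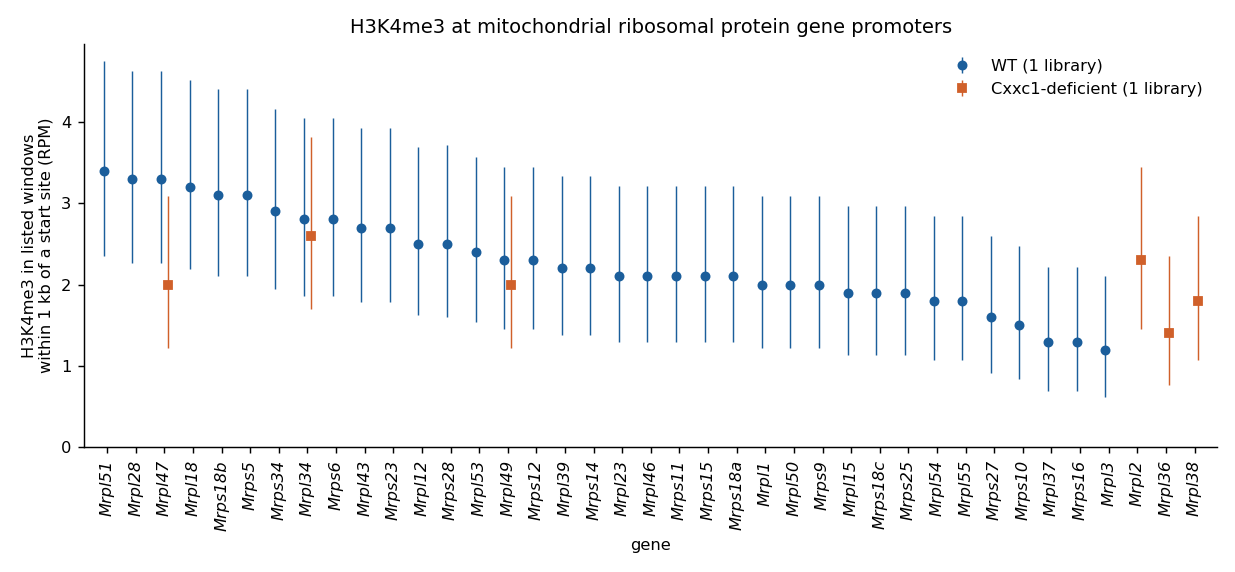
Summed H3K4me3 (RPM, y axis) within 1 kb of a start site for the 39 mitochondrial ribosomal protein genes listed in either genotype (x axis, ordered by WT level), with WT as circles and Cxxc1-deficient as squares. Bars are 95% Poisson intervals of the tag numbers, no point means not listed, and the WT levels fall from 3.4 RPM at Mrpl51 to 1.2 RPM at Mrpl3, while 6 genes have a square.

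The 41 members without a WT window included 28 of the large subunit, namely Mrpl2, Mrpl4, Mrpl9, Mrpl10, Mrpl11, Mrpl13, Mrpl14, Mrpl16, Mrpl17, Mrpl19, Mrpl20, Mrpl21, Mrpl22, Mrpl24, Mrpl27, Mrpl30, Mrpl32, Mrpl33, Mrpl35, Mrpl36, Mrpl38, Mrpl40, Mrpl41, Mrpl42, Mrpl44, Mrpl45, Mrpl48 and Mrpl52. The other 13 were Mrps2, Mrps7, Mrps17, Mrps21, Mrps22, Mrps24, Mrps26, Mrps30, Mrps31, Mrps33, Mrps35, Mrps36 and Mrps36-ps1, the last of which is named as a pseudogene but annotated as coding. Without it, 36 of 76 members were marked (47.4%). Only 2 of the 41 had a WT window within 2 kb of a TSS, Mrpl40 at 1341 bp and Mrps2 at 1786 bp, and 11 had one within 10 kb. Most unlisted members therefore had no called H3K4me3 region nearby, and the list does not tell a weak promoter from an unmarked one.

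Called regions at the marked members were about as wide in the median as those at other genes. The 36 promoters lay in 35 peaks, since Mrpl46 and Mrps11 start 53 bp apart in opposite directions and share one. Peak widths ran from 400 to 4400 bp with a median of 1400 bp, against a median of 1600 bp and a maximum of 19200 bp for peaks at other genes. The maxima are not comparable, since the other genes had 6490 peaks. The widest lay at Mrps34, whose whole peak held 6.4 RPM over 4400 bp. Windows covered the 200 bp after the TSS in 31 of 36 members (86.1%; 76.4% of other marked genes) and the 200 bp before it in 29 (80.6%; 71.1%). At 1.1 kb downstream, 4 of 36 members still had a window (11.1%), compared with 29.1% of other marked genes, and at 300 bp upstream 69.4% of members and 58% of other marked genes did. All 36 members were marked at the 5′-most TSS, from which positions are counted, but only 6477 of the 6914 other marked genes were, so part of the gap near the TSS comes from how genes were chosen. Among those 6477 genes the shares were 81.6% just after the TSS, 75.9% just before it, 61.9% at 300 bp upstream and 30.9% at 1.1 kb downstream, in an alternative added after the data were seen. Within 1 kb of the TSS the members held 44.2 RPM downstream and 36.5 RPM upstream (54.8% downstream, higher downstream in 22 of 36 genes), and the other genes 57.5% downstream.

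**Figure D3:**
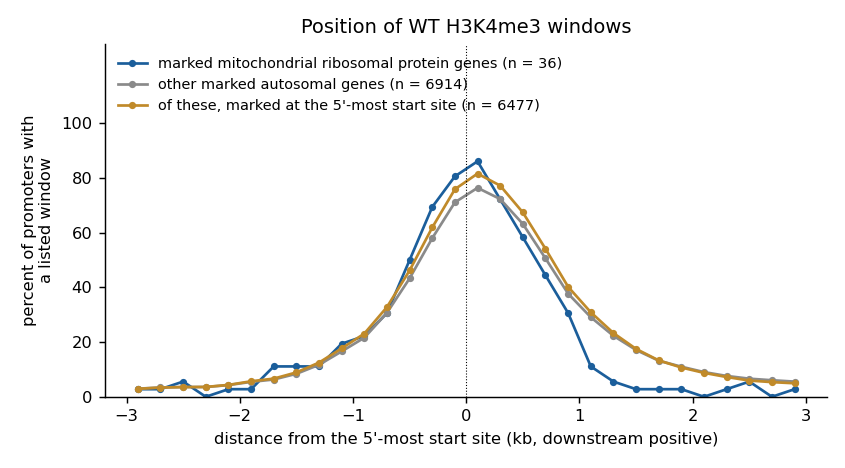
Percent of marked promoters with a listed WT H3K4me3 window (y axis) by distance from the 5′-most start site in 200-bp bins (x axis, kb, downstream positive), for the 36 marked mitochondrial ribosomal protein genes, 6914 other marked genes and the 6477 of these marked at the 5′-most start site. The curves peak just after the start site, at 86.1%, 76.4% and 81.6%, and at 1.1 kb downstream the values are 11.1%, 29.1% and 30.9%.

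Many of the members share their promoter. A TSS of another coding gene lay within 1 kb in 28 of 77 members (36.4%), compared with 12.7% of other genes, and 16 of those 28 were marked (57.1%; 57.5% of other genes with such a partner). Several partners also act in mitochondria. Mrpl47 starts 20 bp from Ndufb5, a complex I subunit gene, Mrps12 171 bp from Sars2, the mitochondrial seryl-tRNA synthetase gene, Mrpl43 116 bp from Peo1, the mitochondrial DNA helicase gene, and Mrps27 108 bp from Ptcd2. Others serve other functions, such as Tcp1, a chaperonin subunit gene 16 bp from Mrpl18, and Fau, which encodes a cytosolic ribosomal protein and lies 135 bp from Mrpl49. A partner did not go with a mark in every case, and Mrpl10 (with Lrrc46), Mrpl13 (with Mtbp), Mrpl14 (with Tmem63b), Mrpl32 (with Psma2) and Mrps7 (with Gga3) were among the 12 with a partner and no window. Windows at these shared promoters cannot be assigned to 1 of the 2 genes. Of the 49 members with no partner, 20 were marked (40.8%), compared with 28.8% of other genes with none.

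The members had more CpG for their base composition than most genes, and this ratio was alike in marked and unmarked members, whereas GC content was not. The ratio of observed to expected CpG within 500 bp of the TSS had a median of 0.72 in the members and 0.56 in all autosomal genes, with 0.72 in marked members and 0.73 in unmarked ones. Median GC was 57.5% in marked and 53.5% in unmarked members. With CpG-rich defined as a ratio of at least 0.65 and at least 55% GC, 38 of 77 members were CpG-rich (49.4%; 36.1% of other genes). Of these, 21 were marked (55.3%, 39.7 to 69.9), beside 56.9% (55.8 to 58.0) of other CpG-rich genes. Of the 39 remaining members, 15 were marked (38.5%, 24.9 to 54.1), beside 18.6% (17.9 to 19.2) of other genes of that class. CpG-rich members were thus marked at a share within 2 percentage points of other CpG-rich genes, whereas the members below the limits had a higher share than other genes below them. Many of those members missed the limits by GC content alone, as 61 of 77 had a ratio of at least 0.65 and only 38 met both limits. The 2 classes below the limits were thus unlike, with a median ratio of 0.66 in the members and 0.30 in the other genes. A shared promoter was also more frequent in these members (23.1%; 7.97% of the other genes). Whether these differences account for the higher share was not tested.

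Short motifs were searched on both strands from 250 bases before to 50 bases after the 5′-most TSS. The letters were CCGGAAG for ETS factors such as GABP (NRF2), CGCANGCG for the core of NRF1, AAGATGGCG for YY1, GGGCGG for SP/KLF factors, CCAAT for NF-Y and TATAAA for the TATA box, and matches may overlap. The ETS motif was in 28 members (36.4%, 26.5 to 47.5), in 11.1% of all autosomal promoters and in 18.5% of CpG-rich ones. The YY1 motif was in 9 members (11.7%, 6.27 to 20.7), in 1.83% of all and in 3.18% of CpG-rich promoters. The members' intervals lay above the shares of all promoters, though members with a common promoter are not independent. Among the 38 CpG-rich members, the ETS motif was in 18 (47.4%, 32.5 to 62.7), above its share of CpG-rich genes. The YY1 motif was in 3 (7.89%, 2.72 to 20.8), an interval that includes the share of CpG-rich genes. These groups still differed, as 50% of CpG-rich members and 21.3% of CpG-rich genes shared a promoter. Their median GC was 59.1% and 63.1%. Motif shares were not compared between genes with and without a shared promoter. The NRF1 core was in 17 members (22.1%), near its share of CpG-rich promoters (21.8%) and above that of all promoters (10.6%). The SP/KLF motif was in 48.1% of members, 44.3% of all and 77.7% of CpG-rich promoters, NF-Y in 39.0% of members and 37.6% of all, and the TATA box in 9.09% and 13.5%.

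**Figure D4:**
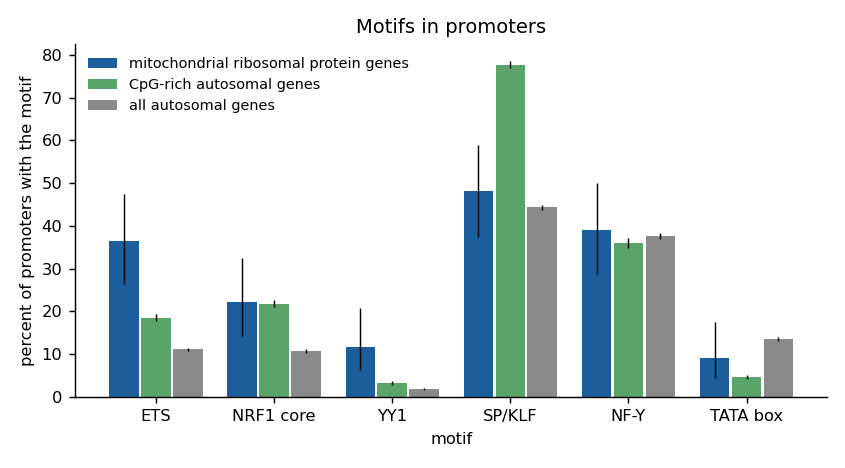
Percent of promoters (y axis) holding each of 6 motifs (x axis) from 250 bases before to 50 after the start site, in the 77 mitochondrial ribosomal protein genes, CpG-rich autosomal genes and all autosomal genes. Bars start at 0, lines are 95% Wilson intervals, and the members hold the ETS motif in 36.4% and the YY1 motif in 11.7%, against 18.5% and 3.18% of CpG-rich genes.

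Of the 9 members with the YY1 motif, Mrpl46, Mrps11, Mrps18a, Mrps27, Mrps10 and Mrpl37 were marked in WT at 1.3 to 2.1 RPM, Mrpl36 was listed only without Cxxc1, and Mrpl42 and Mrps24 were not listed. Mrpl46 and Mrps11 share their promoter, so their matches are not independent. Of the 28 members with the ETS motif, 15 were marked (53.6%; 49.7% of other genes with it). Of the 17 with the NRF1 core, 5 were marked (29.4%, 13.3 to 53.1), while 54.3% of other genes with it were. These are Mrpl43, Mrpl12, Mrpl49, Mrps9 and Mrps27. A match is a run of letters and not a bound site.

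Without Cxxc1, 6 of the 77 members had an H3K4me3 window (7.79%, 3.62 to 16), where 6.1% of all autosomal genes did. All 6 belong to the large subunit (12.8% of 47, 5.98 to 25.2), and 0 of 30 small subunit promoters were listed (0 to 11.4), with intervals that overlap and both include the share of all genes. Of the 36 members marked in WT, 3 were also listed without Cxxc1 (8.33%, 2.87 to 21.8), where 12.8% of all WT-marked autosomal genes were. Among other genes within the members' WT range of 1.2 to 3.4 RPM, 634 of 5548 were listed in both (11.4%). The interval of the members' share includes both values, and at 36 promoters a modest difference in either direction was not detectable. With only the stronger 50% of peaks, the share listed in both was 17.6% for the members (3 of 17, 6.19 to 41) and 9.35% for the other genes. This setting cut each list at its own median peak strength, 2.3 RPM in WT and 2.0 RPM without Cxxc1. The list that defines a kept promoter was thus reduced as well. The order of the shares turned, but the members' interval includes the other genes' share. Without genes that share a promoter it was 1 of 20 for the members (5%, 0.888 to 23.6) and 11.9% for the other genes, since 2 of the 3 have a partner.

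For the 3 promoters listed in both genotypes, the comparison depended on whether windows within 1 kb or whole peaks were summed. Mrpl34 had 2.8 RPM in WT and 2.6 RPM without Cxxc1 (28 and 26 tags, ratio 0.93, 0.52 to 1.64), with 4 windows in common. Mrpl49 had 2.3 and 2.0 RPM (23 and 20 tags, ratio 0.87, 0.45 to 1.66), with 4 windows in common. Mrpl47 had 3.3 and 2.0 RPM (33 and 20 tags, ratio 0.61, 0.33 to 1.09), with 3 windows in common. Within 1 kb all 3 values were lower without Cxxc1, but each interval of the ratio includes 1. Over whole peaks, an alternative added after the data were seen, Mrpl34 had 5.4 and 2.6 RPM (54 and 26 tags, ratio 0.48, 0.29 to 0.78), since its WT peak extends farther upstream. Mrpl49 had 2.3 and 2.5 RPM (23 and 25 tags, ratio 1.09, 0.59 to 2.0), so its direction turned, and Mrpl47 was the same as within 1 kb. The median ratio of the 885 other genes listed in both was 0.71, and 664 of them were lower. Mrpl47 and Mrpl49 share their promoters with Ndufb5 and Fau, and Mrpl34 has no partner. All 3 promoters are CpG-rich. Of the marked members, 3 of 21 with a CpG-rich promoter were listed in both (14.3%, 4.98 to 34.6) and 0 of 15 others (0 to 20.4). These intervals overlap, and among other genes the shares were 12.4% and 13.6%.

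The remaining 3 promoters were listed without Cxxc1 and not in WT. Mrpl2, the counterpart of bacterial L2 near the peptidyl transferase centre, had 2.3 RPM (23 tags, 14.6 to 34.5), and its nearest WT window was 3182 bp from a TSS. Mrpl38 had 1.8 RPM (18 tags), with the nearest WT window at 6382 bp. Mrpl36, the counterpart of bacterial L36, had 1.4 RPM (14 tags), with the nearest WT window at 138744 bp. Their levels lie within the range of marked members in WT, and 416 other genes were likewise listed only without Cxxc1. Whether these 3 gained H3K4me3 cannot be told, since their WT level is unknown.

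The other 33 marked members were not listed without Cxxc1. They include Mrpl51, Mrpl28 and Mrpl18, which had 34, 33 and 32 tags in WT, and all 17 marked small subunit genes. The nearest window without Cxxc1 was 29983 bp from a TSS of Mrpl51, 52265 bp from Mrpl28, 90990 bp from Mrpl18, 247468 bp from Mrps18b and 18424 bp from Mrps5, far beyond the edges of the WT peaks. Strength in WT went with listing in both genotypes among other genes, from 10.2% below 1.5 RPM to 17.7% at 3.0 RPM and above. Among the members the counts were 0 of 10 below 2.0 RPM and 3 of 26 at 2.0 RPM and above, too few to show such a trend.

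Cxxc1 itself was listed at 1 of the 77 promoters, Mrpl53 (1.30%, 0.23 to 7.0), where 2.03% of all autosomal genes had a window. Within 2 kb it was listed at 3 of 77 members (3.9%, 1.33 to 10.8) and 2.73% of other genes, so the order of the shares turned, and the 2 members gained were Mrpl14 and Mrpl21, with windows 1071 and 1101 bp from a TSS. The level at Mrpl53 was 1.2 RPM within 1 kb, the nearest window began 112 bp from the TSS, and the whole peak (chr6:83059201-83061000) held 1.9 RPM in 19 tags. Mrpl53 had 2.4 RPM of H3K4me3 in WT and was not listed without Cxxc1. Thus the 1 member with Cxxc1 at its promoter was among the 33 that left the list, as were 32 members with no Cxxc1 window. In the gene body or the 10 kb upstream, 5 members had Cxxc1 (6.49%, 2.81 to 14.3), compared with 11.6% of other genes, whose median length was 15.6 kb against 7.65 kb. The 4 besides Mrpl53 were Mrpl14 with a peak 1.37 kb upstream (1.3 RPM), Mrpl21 with one 1.40 kb upstream (1.4 RPM), Mrpl10 with one 5.07 kb upstream (1.5 RPM) and one 7.63 kb downstream of the TSS (1.8 RPM), and Mrpl30 with one 5.28 kb downstream (2.6 RPM). None of these 4 had a WT H3K4me3 window within 1 kb of a TSS, a narrower region than the one read for Cxxc1. Their nearest WT windows lay 6671 bp (Mrpl14), 7941 bp (Mrpl21), 8492 bp (Mrpl10) and 17922 bp (Mrpl30) from a TSS.

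The same measures were read in genes that work with the mitochondrial ribosome, from lists that are described by counts only. Of all autosomal genes, 32.5% were marked in WT and 6.1% listed without Cxxc1. Of 7 ribosomal proteins under other symbols, 2 were marked in WT (28.6%, 8.22 to 64.1), and neither was listed without Cxxc1. They were Ict1, a peptidyl-tRNA hydrolase within the large subunit (1.9 RPM), and Dap3 (1.6 RPM). Of 12 translation factors, 7 were marked (58.3%, 32 to 80.7) and 0 listed without Cxxc1 (0 to 24.2), an interval that includes the share of all genes. Lrpprc, which binds mitochondrial messages, had the highest level at 3.8 RPM, followed by Mtfmt, the methionyl-tRNA formyltransferase, at 2.8 RPM and the initiation factors Mtif3 at 2.4 RPM and Mtif2 at 1.5 RPM. Of 19 tRNA synthetase and charging genes, 10 were marked (52.6%, 31.7 to 72.7). Vars2 alone was listed without Cxxc1 (5.26%, 0.935 to 24.6), at 2.9 RPM in both genotypes. The marked genes include Sars2, which shares its promoter with Mrps12 and is therefore not independent of the members.

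For rRNA modification and subunit assembly, the list held 16 genes, of which 9 were marked in WT (56.2%, 33.2 to 76.9; 32.5% of all genes), 4 were listed without Cxxc1 (25%, 10.2 to 49.5; 6.1% of all genes) and 3 in both. No test of a difference between lists was made. Nsun4, an rRNA methyltransferase, has 2 gene identifiers and is counted once here. It was listed in both genotypes under each, at 1.5 RPM without Cxxc1. Counting each symbol once was not planned. With both entries, the planned count, the numbers were 10 (58.8%), 5 (29.4%) and 4 of 17. Ftsj2 had 3.0 RPM in WT and 1.8 RPM without Cxxc1, Rpusd4 1.7 and 2.4 RPM, and Eral1, a GTPase that chaperones the small subunit rRNA, was listed only without Cxxc1 at 1.7 RPM. Rnmtl1 had 2.2 RPM in WT, a Cxxc1 window (1.9 RPM) and none of H3K4me3 without Cxxc1. For comparison, 45 of 74 cytosolic ribosomal protein genes were marked in WT (60.8%, 49.4 to 71.1), 4 were listed without Cxxc1 and 3 in both (6.67% of the 45). The mitochondrial ribosome thus had the lower WT share of the 2 ribosomes (46.8% against 60.8%), with overlapping intervals. The sets also differed in composition, as 49.4% of the mitochondrial and 75.7% of the cytosolic genes had a CpG-rich promoter. Whether this accounts for the gap was not tested.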

How the data were processed

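The authors fixed chromatin with formaldehyde, sonicated it, sequenced 50-bp reads, mapped them to mm9 and called regions with SICER on uniquely mapped reads; the submitters' processing notes name CASAVA 1.8.2 and SICER 1.1. The methods name input DNA and ChIP DNA of Cxxc1-deficient cells as controls, without saying which served for H3K4me3, and the aligner is not given in the sources used here. The authors deposited 200-bp windows of called regions with a value in RPM (1 decimal) and no peak statistics; all 3 files were used, with 0 unassigned value columns. Of the 5 samples, the input and the Cxxc1 ChIP of Cxxc1-deficient cells were not analysed here.

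From these, windows with at most 2 missing windows between them were joined into peaks, and windows overlapping 1 kb either side of a TSS of a protein-coding transcript (GENCODE vM1 on mm9) were summed. The value of 1 tag was inferred from the decimals that occur (0.1056 to 0.1062 RPM for H3K4me3, 0.1083 to 0.1100 RPM for Cxxc1), and tags are RPM divided by it. Shares carry 95% Wilson intervals, tags and ratios exact Poisson or binomial ones, and medians order-statistic ones. Promoter sequence was read from the mm9 genome. Python 3.11.15, numpy 2.4.6, pandas 2.3.3, scipy 1.17.1 and matplotlib 3.10.9 were used; overlap was tested on simulated data and gave the same counts in bedtools 2.31.1. With 1 library per group no test was made. Genes named are every member listed without Cxxc1 or with Cxxc1, the strongest and weakest marked members and, by name, the rest. The members and lists were chosen with earlier results of these data known. Alternatives changed the distance, TSS, partner genes, window and peak strength, number of windows and the comparison genes.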

Additional observations from a re-analysis of the deposited data

How the results depend on the processing

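Of 77 alternative values for the shares and medians of both gene sets (10 results), 40 lay inside the 95% interval of the reported value; for the mitochondrial ribosomal protein genes this held for 32 of 36. Their median WT level became 1.9 RPM within 500 bp, 1.55 RPM with windows of at least 0.4 RPM and 2.8 RPM with the stronger 50% of peaks, which also gave 22.1% marked in WT. For other genes the shares marked in WT, listed without Cxxc1 and with Cxxc1 became 31.4%, 5.69% and 1.57% within 500 bp, 33.8%, 6.54% and 2.73% within 2 kb, 30.4%, 5.45% and 1.63% with the 5′-most TSS, 31.8%, 5.73% and 1.83% with windows of at least 0.4 RPM, 21%, 3.72% and 1.49% with the stronger 50% of peaks, 31.2%, 5.59% and 1.43% with at least 3 windows, and 56.9%, 9.79% and 3.01% in CpG-rich genes. Without shared promoters the first pair became 28.8% and 5.17%. The share of other genes listed in both became 11.7% with the 5′-most TSS, 11.9% without shared promoters, 9.35% with the stronger 50%, 12% with at least 3 windows and 11.4% within the members' WT range, an alternative chosen after seeing the data. Their median became 1.9 RPM within 500 bp, 2.6 RPM within 2 kb, 1.6 RPM with windows of at least 0.4 RPM, 2.8 RPM with the stronger 50% and 2.5 RPM in CpG-rich genes. The cause was not tested. The setting with the stronger 50% of peaks cut the Cxxc1-deficient list as well as the WT list. There the members' share listed in both was 17.6% (3 of 17, 6.19 to 41), above the other genes' 9.35%, the reverse of the order reported. The interval includes the other genes' share.

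No paired analysis was possible because no group held more than 1 library. The lists hold only called windows, so an unlisted promoter has an upper level that is not known, and differences in antibody enrichment between libraries cannot be told apart from genotype. Intervals treat promoters as independent, which shared promoters are not.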
